A study of Homo sapiens with 54 samples.

Results

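The response of 2 human tumour lines to tumour necrosis factor (TNF-α) was compared gene by gene. HCT116 is a colon cancer line, and HepG2 is a liver cancer line that the labels describe as a liver cancer stem cell. In each line, cells given TNF-α at 100 ng/mL were set against cells given interleukin-10 (IL-10) at 50 ng/mL for the same 3 h or 6 h. The comparator is therefore a second cytokine and not an untreated culture. This takes 24 of the 54 libraries, in 8 groups of 3, all of poly(A) RNA from these established lines. The IL-10 dose is given in the series text and not in the treatment protocol. In each line 3 further libraries are negative controls (NC), which the protocol treats with medium and which carry no time, and these are quoted where the choice of control bears on a value. The TNF effect of a line is the TNF mean minus the IL-10 mean of the same hour on the log2(FPKM + 1) scale, averaged over both hours. The line difference is this effect in HCT116 minus that in HepG2, so a value above 0 is a larger rise, or a smaller fall, in HCT116. It was computed for the 9683 of 50037 table entries that reached 1 FPKM in at least 3 libraries of both lines. FPKM are fragments counted per kilobase of transcript and scaled by a size for each library. Here these sizes were 0.998 to 1.002 times median-of-ratios sizes over all 54 libraries. A comparison of levels between the lines rests on this scaling. Each group's 3 libraries are biological replicates in the series text, which names no separate cultures. The p-values rest on the spread among replicate libraries within groups, pooled over the groups of all 54 libraries. Part or all of that spread may be technical.

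TNF binds the receptor TNFR1, encoded by TNFRSF1A, which assembles an adaptor complex with TRAF and cIAP proteins. From there the IkB kinase frees NF-kB dimers, which enter the nucleus and switch on inflammatory, survival and adhesion genes, among them their own inhibitors NFKBIA and TNFAIP3. The same complex feeds the JNK and p38 kinases and can turn toward cell death when the survival genes are not made. In the liver TNF belongs to the acute phase and regeneration responses, and in the intestinal epithelium it is a main mediator of inflammation.

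The depth recovered from the FPKM steps, to 3 digits, was 41300000 to 55700000 reads on genes in the 12 HCT116 libraries and 49400000 to 70400000 in the 12 HepG2 libraries. The hepatocyte markers ALB, AFP, APOA1, APOB, TTR, AHSG and HNF4A summed to 12600 to 14300 FPKM in HepG2 and to 2.14 to 8.10 FPKM in HCT116. The 9 colon markers summed to 165 to 191 FPKM in HCT116 and 149 to 169 in HepG2, ranges that overlap. In each line 2 of the 9 reached 1 FPKM in every library. The epithelial protein EPCAM stood at 165 to 184 FPKM in the HCT116 groups and 109 to 115 in the HepG2 groups. The intestinal factor CDX2 stood at 1.70 to 2.19 FPKM in the HCT116 groups, while CEACAM5 was listed at 0. VIL1, the villus protein villin, stood at 41.3 to 51.9 FPKM in the HepG2 groups and at or under 0.0232 in the HCT116 groups. Of 7 blood cell markers, none reached 1 FPKM in every library of a line, and their sum reached 0.234 FPKM in HCT116 and 1.63 in HepG2. CD68, not among these 7, was the 1 tested member of a longer list of 14 blood cell markers. Its group means were 28.05 to 32.64 FPKM in HepG2 and 3.105 to 6.174 in HCT116. The sum of 7 fibroblast and endothelial markers was at most 1.85 and 1.05 FPKM. Replicate libraries differed by more than sampling noise in each of the 8 groups (chi-square per degree of freedom 8.47 to 28.4). In bulk RNA, fewer cells that respond and less RNA per cell cannot be told apart.

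TNF changed more genes in HCT116 than in HepG2, and the largest rises were in HCT116. At a limma adjusted p under 0.05, 5252 genes (54.2% of those tested) differed between TNF and IL-10 in HCT116, with 2069 rising (21.4%) and 3183 falling (32.9%), and 3933 genes (40.6%) in HepG2, with 2144 rising (22.1%) and 1789 falling (18.5%). Most of these changes were small. In all, 66 genes rose by at least 2-fold in HCT116 and 26 in HepG2, while 8 and 4 fell by that much. The line difference itself was called for 3864 genes (39.9%), of which 1373 (14.2%) were above 0 and 2491 (25.7%) below. Few differences reached 2-fold, 36 above and 14 below. The split of the smaller differences depended on scaling, with 1892 above and 1924 below 0 after median-of-ratios scaling within each line. In HepG2 scaling by total reads gave 1594 genes rising and 2525 falling. The counts of each line also depended on the control. Against NC, 3813 genes were called in HCT116, 1703 rising and 2110 falling. In HepG2 3148 were called against NC, 1319 rising and 1829 falling, so more fell than rose there. With NC in place of IL-10, 1728 differences were called, 933 above and 795 below; 1139 of them were also called with IL-10 and of the same sign, and 39 were called with the opposite sign.

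The genes that TNF raised most in HCT116 were largely raised in HepG2 too, by less. Of the 66 genes that rose at least 2-fold in HCT116, 56 also rose in HepG2, 17 of them by at least 2-fold, and 9 were not called in HepG2. The rise was larger in HCT116 by the test of the difference for 63 of the 66, against 14.2% of all genes. Of the 26 genes that rose at least 2-fold in HepG2, 19 also rose in HCT116 and 6 were not called there, and 10 had a larger rise in HepG2. These counts share the contrast that defines the sets and are given as a description. Across the 9683 genes the effects of the lines were correlated with Pearson's r 0.454 and Spearman's rho 0.351, a description across genes that share libraries within each line.

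**Figure D1:**
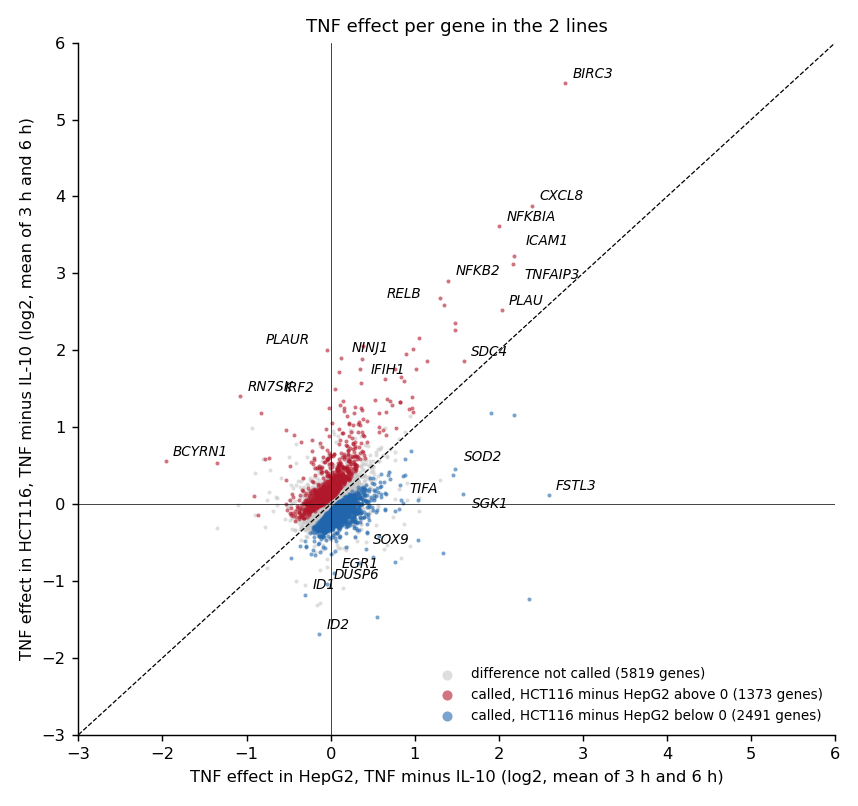
TNF effect per gene in HepG2 (horizontal axis) and HCT116 (vertical axis), each as TNF minus IL-10 on the log2(FPKM + 1) scale, mean of 3 h and 6 h; 1 point is 1 of 9683 genes, and the dashed line marks equal effects. BIRC3, CXCL8 and NFKBIA lie far out in both directions and above the line, PLAUR and IRF2 lie near 0 in HepG2, and FSTL3 and SGK1 near 0 in HCT116.

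The same genes started from different levels. Of the 66 genes that rose at least 2-fold in HCT116, 42 (63.6%) had a higher mean FPKM in HepG2 than in HCT116 under IL-10, against 49.3% of all genes tested. Under TNF, 24 of the 66 (36.4%) were higher in HepG2, against 49.9% of all genes. Their median level was 3.56 FPKM in HCT116 and 4.73 in HepG2 under IL-10, and 14.3 and 8.93 under TNF. Of the 17 genes that rose at least 2-fold in both lines, 15 had the higher IL-10 level in HepG2. The sets were picked by the TNF and IL-10 values of these same libraries, and some genes passed the level rule only through TNF groups. These shares are thus partly fixed by that choice and are given as a description. Levels are given beside many of the effects.

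The gene with the largest line difference above 0 was BIRC3, which encodes the ubiquitin ligase cIAP2 of the TNF receptor complex (chromosome 11, 102317484 to 102339403, GRCh38.p14). In HCT116 its FPKM went from 0.948, 0.645 and 0.507 under IL-10 to 88.7, 80.7 and 89.8 under TNF at 3 h, and from 0.666, 0.525 and 0.512 to 59.9, 58.8 and 57.0 at 6 h. In HepG2 it went from 3.91, 3.45 and 3.06 to 22.1, 20 and 22.0 at 3 h, and from a mean of 1.31 ± 0.050 (SD, n = 3) to 22.0, 18.7 and 22.3 at 6 h. All TNF libraries stood above all IL-10 libraries in both lines, and the HCT116 cells started lower and ended higher. The effect was 5.47 ± 0.060 (SE) in HCT116 and 2.79 ± 0.060 in HepG2, a difference of 2.68 ± 0.085 (limma adjusted p = 1.2e-25).

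PLAUR encodes the urokinase receptor, which holds the protease urokinase at the cell surface (chromosome 19, 43646095 to 43670169). In HCT116 it read 25, 22.8 and 20.4 FPKM under IL-10 against 90.6, 95.2 and 99.6 under TNF at 3 h, and 12.8, 8.35 and 9.66 against 40.8, 40.5 and 49.6 at 6 h. In HepG2 it read 1.17, 1.15 and 1.07 against 1.10, 1.07 and 0.773 at 3 h, and 1.07, 0.933 and 1.2 against 1.22, 1.02 and 1.05 at 6 h. The HCT116 groups did not overlap at either hour, and the HepG2 groups overlapped at both. The effect was 2.01 ± 0.077 in HCT116 and -0.05 ± 0.077 in HepG2, a difference of 2.06 ± 0.11 (adjusted p = 1.45e-18). In HepG2 PLAUR was only just inside the level rule, with no library above 1.40 FPKM, whereas BCL2A1, a survival gene, was just outside it where its TNF means reached 1.18 FPKM in HCT116 and 1.02 in HepG2.

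FSTL3 showed the reverse and had the largest difference below 0 among entries without a copy elsewhere in the table. It encodes follistatin-like 3, a secreted protein that binds and blocks activin (chromosome 19, 676392 to 683385). In HepG2 it rose from 11.7, 11.3 and 10.4 FPKM under IL-10 to 59.3, 50.7 and 56.5 under TNF at 3 h, and from 12.5, 12.8 and 10.8 to 99.5, 98.3 and 105 at 6 h. In HCT116 the values were 6.28, 6.47 and 5.98 against 6.27, 7.20 and 7.04 at 3 h, and 7.17, 7.18 and 7.51 against 7.58, 7.85 and 8.51 at 6 h. The HepG2 groups stood far apart at both hours, and the HCT116 groups overlapped at 3 h and lay close together at 6 h. The effect was 2.60 ± 0.057 in HepG2 and 0.11 ± 0.057 in HCT116 (adjusted p = 0.0911), a difference of -2.48 ± 0.081 (adjusted p = 2.69e-25). This difference grew from -2.11 at 3 h to -2.86 at 6 h.

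**Figure D2:**
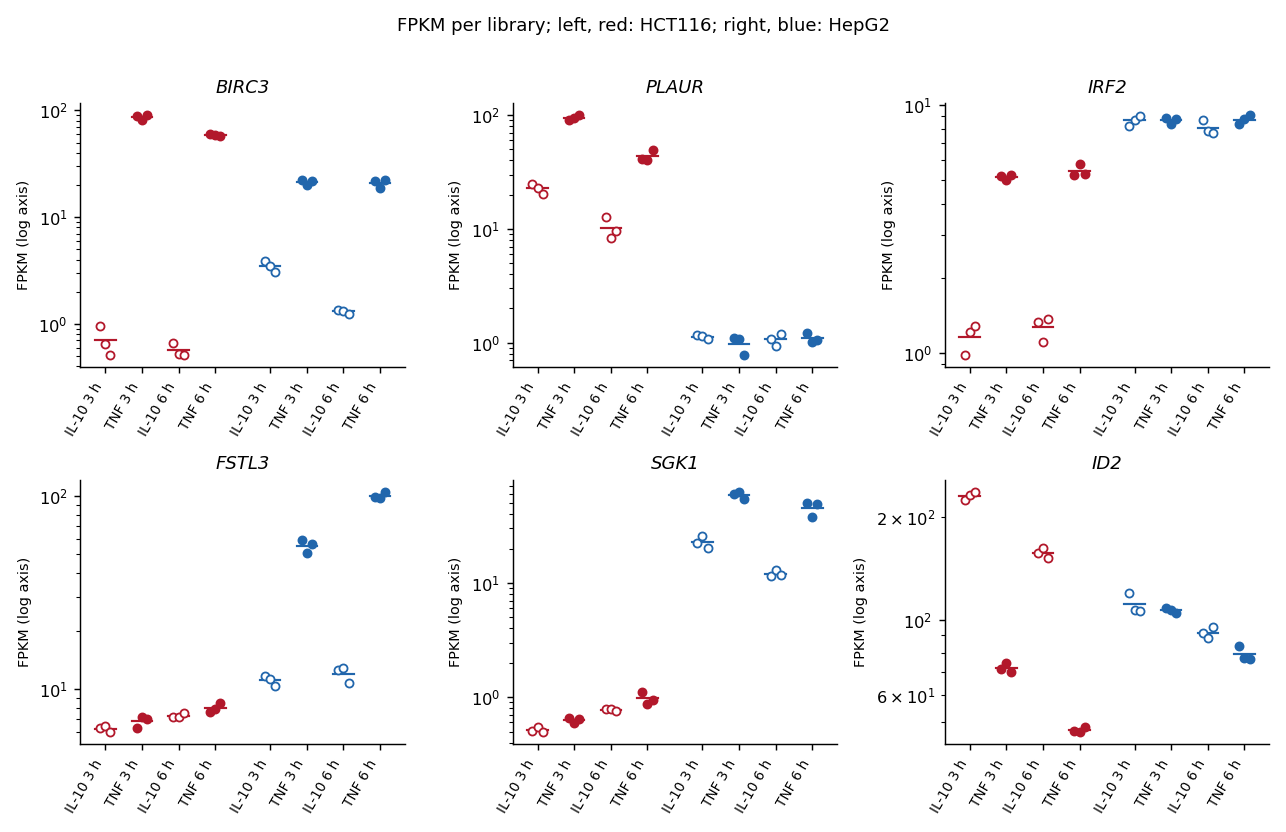
FPKM on a log axis in each of the 24 libraries for 6 genes, with HCT116 in red on the left and HepG2 in blue on the right of each panel; open points are IL-10, filled points TNF, and bars are means of 3 libraries. BIRC3 rises in both lines, PLAUR and IRF2 in HCT116, FSTL3 and SGK1 mainly in HepG2, and ID2 falls mainly in HCT116.

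The NF-kB subunits and IkB proteins rose in both lines and more in HCT116. All 10 tested members of the list rose in HCT116 (median effect 1.49) and all 10 in HepG2 (median 0.96), while NFKBIB was under the level rule. Of the 10, 2 had IL-10 and NC means under 1 FPKM in HCT116 and 1 in HepG2, so these passed the level rule through groups in which they were high. The line difference was above 0 and called for 9 of 10, against 14.2% of all genes tested. Its median was 0.69, against -0.02 over all genes tested. NFKBID was the tenth, at 0.14 (adjusted p = 0.204), or 0.092 (adjusted p = 0.0146) with a pseudocount of 5. NFKB2, the p100 precursor, went from means of 9.96 and 9.85 FPKM at 3 h and 6 h to 74.1 and 87.1 in HCT116, and from 17.6 and 9.88 to 35.1 and 38.0 in HepG2, a difference of 1.5 ± 0.069. RELB, its partner in the non-canonical dimer, differed by 1.38 ± 0.096, and NFKB1, the p105 precursor, by 1.05 ± 0.040. REL differed by 0.65 ± 0.052, or 0.33 with a pseudocount of 5. RELA, the main activating subunit, moved least of the 5 subunits, by 0.52 in HCT116 and 0.24 in HepG2. Among the inhibitors, NFKBIE differed by 0.74 ± 0.059, or 0.46 with that pseudocount. The co-activating IkB proteins NFKBIZ and BCL3 differed by 0.21 and 0.30, and both stood lower in HCT116 than in HepG2. With a pseudocount of 5 NFKBIZ turned to -0.18 (adjusted p = 9.55e-07) and BCL3 to -0.01 (adjusted p = 0.834), and with NC in place of IL-10 neither was called.

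NFKBIA encodes IkBα, the inhibitor that holds NF-kB in the cytoplasm (chromosome 14, 35401513 to 35404749). In HCT116 it rose from 9.04, 8.83 and 9.30 FPKM under IL-10 to 159, 169 and 175 under TNF at 3 h, and from 10.2, 9.75 and 9.16 to 93.9, 95.9 and 94.4 at 6 h. The HepG2 values rose from 143, 175 and 132 to 429, 516 and 385 at 3 h, and from 64.6, 59.5 and 59.1 to 342, 328 and 341 at 6 h. No TNF library overlapped an IL-10 library of its line and hour, and every HepG2 library under TNF was above every HCT116 library. The difference was 1.61 ± 0.090 (adjusted p = 6.88e-18). The NC means were 9.54 ± 0.32 FPKM in HCT116 and 79.0 ± 2.8 in HepG2 (SD, n = 3), so the higher start in HepG2 was also seen without IL-10.

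**Figure D3:**
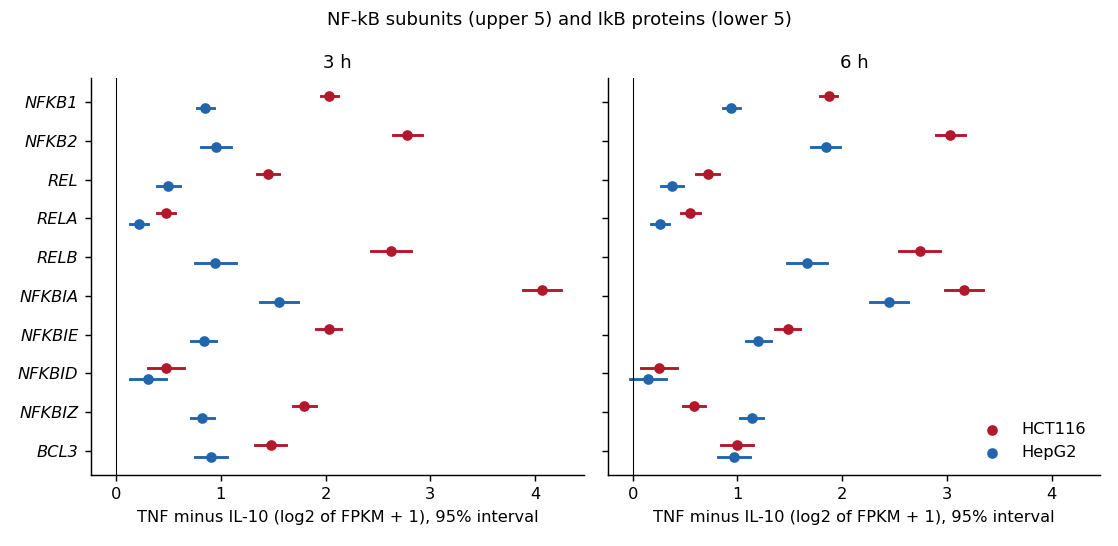
TNF minus IL-10 on the log2(FPKM + 1) scale at 3 h (left) and 6 h (right) for the 5 NF-kB subunits and 5 IkB proteins; points are estimates, bars 95% intervals of the fit, red HCT116 and blue HepG2. At 3 h the HCT116 point lies to the right for all 10 genes, while at 6 h NFKBIZ lies to the left and BCL3 has about the same effect in both lines.

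NF-kB dimers bind a sequence that can be written as GGG, any 3 bases, then TTCC, and promoters of the genes that rose were searched for it on both strands, from 250 bases before to 50 after the RefSeq start (GRCh38.p14). The letters were present in 21 of 56 promoters (37.5%) of genes that rose at least 2-fold in HCT116 and had an entry, and in 8 of 23 (34.8%) of those that did so in HepG2. The share was 588 of 7525 (7.8%) among genes tested and 1766 of 27305 (6.5%) among all RefSeq promoters. Among the 8 genes that moved most in both lines 5 held it. Among the genes with the largest line differences it was in 3 of 10 above 0 and 2 of 14 below 0. The windows of PLAUR and FSTL3 did not hold these letters. Stretches of 80 bases are shown 5′ to 3′ on the strand of the gene, with the match on either strand in capitals, for 4 genes that rose strongly in both lines and for IFIH1, which rose mainly in HCT116. NFKBIA is chr14:35404786-35404865 on the minus strand, TNFAIP3 chr6:137867157-137867236 on the plus strand with 2 matches, BIRC3 chr11:102317250-102317329 on the plus strand, SDC4 chr20:45348477-45348556 on the minus strand and IFIH1 chr2:162318716-162318795 on the minus strand. A match is a description of the letters and does not show binding.
NFKBIA: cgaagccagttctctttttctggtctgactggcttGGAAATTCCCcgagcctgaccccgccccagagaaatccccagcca
TNFAIP3: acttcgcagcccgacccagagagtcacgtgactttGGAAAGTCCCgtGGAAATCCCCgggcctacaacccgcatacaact
BIRC3: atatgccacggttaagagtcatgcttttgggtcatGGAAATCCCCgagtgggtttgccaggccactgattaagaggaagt
SDC4: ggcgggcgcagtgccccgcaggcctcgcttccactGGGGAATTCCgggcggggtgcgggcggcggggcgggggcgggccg
IFIH1: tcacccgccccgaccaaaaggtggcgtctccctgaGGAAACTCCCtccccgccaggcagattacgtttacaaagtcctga

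TNFRSF1A, the receptor itself, fell slightly in both lines against IL-10, from 18.1 to 25.8 FPKM under IL-10 to 17.7 to 21.3 under TNF in HCT116 and from 26.2 to 29.7 to 21.8 to 27.6 in HepG2. Its line difference was 0.04 ± 0.034 (95% interval -0.03 to 0.11, adjusted p = 0.328), and it became 0.31 (adjusted p = 3.34e-07) with NC in place of IL-10. Against NC it rose in HCT116, by 0.08 (adjusted p = 0.028), and its HepG2 effect was -0.23. TNFRSF1B, the second receptor, was at most 0.0537 FPKM in any of the 24 libraries. Of 20 tested genes of the receptor complex, 9 had a difference above 0, 2 below and 9 were not called, with a median of 0.11. Of the 20, 1 had IL-10 and NC means under 1 FPKM in HCT116. The shares over all genes tested were 14.2% above and 25.7% below. TRAF3, a brake on the non-canonical NF-kB pathway, rose from means of 4.04 and 4.41 to 8.78 and 10.7 FPKM in HCT116 and from 2.10 and 2.04 to 2.42 and 3.00 in HepG2, a difference of 0.77 ± 0.040. BIRC2, the cIAP1 ligase next to BIRC3 in function, differed by 0.65 ± 0.038. TRAF2 differed by 0.34, which was 0.17 with a pseudocount of 5 and 0.13 (adjusted p = 0.198) with NC.

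The feedback regulators of NF-kB split evenly, with 5 differences above 0, 5 below and 1 not called of 11 tested (median 0.04). Over all genes tested 14.2% were above 0 and 25.7% below. All 11 rose in HepG2, while in HCT116 6 rose, 1 fell and 4 were not called. Over all genes 22.1% rose in HepG2 and 21.4% in HCT116. Of the 11, 2 had IL-10 and NC means under 1 FPKM in HCT116. The members described here all differed above 0. TNFAIP3, the A20 ubiquitin editor that shuts the pathway off, rose from 0.5, 0.619 and 0.467 to 14.7, 14.2 and 14.8 FPKM at 3 h in HCT116 and from 0.793, 0.613 and 0.710 to 11.4, 10.9 and 12.7 at 6 h. HepG2 began higher and rose from 18.2, 21.2 and 16.6 to 63.3, 73.4 and 56.8 at 3 h and from 7.67, 7.79 and 7.33 to 51.1, 50.4 and 52.3 at 6 h. No TNF library overlapped an IL-10 library of its line and hour. The effects of 3.12 in HCT116 and 2.17 in HepG2 differed by 0.95 ± 0.073 (adjusted p = 1.3e-13). With a pseudocount of 5 this became -0.17 (adjusted p = 0.0107), and with voom on the recovered reads 2.15. Its HCT116 level under IL-10 was under 1 FPKM. TNIP1, a partner of A20, differed by 0.56 ± 0.044 and rose in both lines, with 0.17 at a pseudocount of 5 and 0.99 with voom. ZC3H12A, an RNase that degrades cytokine transcripts, differed by 0.37 ± 0.087, with 0.09 (adjusted p = 0.126) at a pseudocount of 5 and 0.12 (adjusted p = 0.47) with NC.

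Of 31 listed chemokine and cytokine genes, 9 passed the level rule in both lines. For 7 of these 9 every IL-10 and NC mean in HCT116 was under 1 FPKM, so they passed only through groups in which they were high, and no count of rises is given for the list. CXCL8, the neutrophil chemokine interleukin-8, went from 0.433, 0.470 and 0.275 to 48.8, 49.8 and 53.7 FPKM at 3 h in HCT116, and from 0.276, 0.163 and 0.298 to 5.89, 5.85 and 7.09 at 6 h. In HepG2 it went from 25.9, 26.3 and 20.3 to 96.5, 103 and 86.1 at 3 h, and from 10.1, 10.2 and 8.04 to 80.8, 62.2 and 79.5 at 6 h. The TNF level in HCT116 had dropped by 6 h, and that in HepG2 was lower by much less. The mean difference was 1.49 ± 0.12 (adjusted p = 1.5e-13), which was 3.40 with voom on the recovered reads and 0.12 (adjusted p = 0.291) with a pseudocount of 5.

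CCL20, a chemokine for lymphocytes and dendritic cells, was the most abundant of them in HepG2, at 2780, 2620 and 2530 FPKM under TNF and 1380, 1350 and 1180 under IL-10 at 3 h. In HCT116 it was 11.2, 8.55 and 11.1 FPKM under TNF at 3 h, and under IL-10 it was listed at 0 in 1 library and read 0.483 and 0.320 in the others. The difference of 0.88 turned to -0.45 (adjusted p = 4.32e-06) with a pseudocount of 5, was 3.86 with voom and was not called with NC (0.21, adjusted p = 0.38). IL32, a pro-inflammatory cytokine, stood at 101 to 115 FPKM in HepG2 and under 0.1 in HCT116 as group means under IL-10, and its difference of 0.98 turned to -0.10 (adjusted p = 0.134) with that pseudocount and was 5.38 with voom. The related neutrophil chemokines CXCL1, CXCL2 and CXCL3, near-identical paralogs whose reads may be split between them, differed by 0.79, -0.72 and -1.01. CXCL1 was 0.25 with a pseudocount of 5, 0.42 with NC and 1.98 with voom, and CXCL3 was -1.69 with NC. With voom CXCL2 turned to 0.60 (adjusted p = 0.231) and CXCL3 to 0.38 (adjusted p = 0.431). For CCL20, IL32, CXCL2 and CXCL3 the sign of the line difference thus depended on the scale.

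Of 13 tested adhesion and immune surface genes, 7 differences were above 0, 1 was below and 5 were not called (median 0.23). The shares over all genes tested were 14.2% above and 25.7% below. ICAM1, which binds leukocyte integrins, rose from 1.02, 1.43 and 1.44 to 38.8, 37.8 and 41.6 FPKM at 3 h in HCT116 and from 1.85, 1.95 and 1.88 to 12.7, 14.1 and 13.1 at 6 h. The HepG2 libraries rose from 53.5, 59.1 and 53.9 to 211, 210 and 218 at 3 h and from 30.6, 29.4 and 26.6 to 168, 151 and 168 at 6 h. The groups did not overlap in either line. The difference was 1.04 ± 0.069, and 0.04 (adjusted p = 0.591) with a pseudocount of 5. CD83, an activation marker of immune cells, rose from means of 3.58 and 4.28 to 32.0 and 25.6 FPKM in HCT116 and from 4.71 and 3.27 to 12.2 and 11 in HepG2, a difference of 1.24 ± 0.071. CD40, the TNF-family receptor for CD40 ligand, rose in HCT116 (0.55) and stood at 0.12 in HepG2 (adjusted p = 0.119). TNFRSF12A, the receptor for TWEAK, was the member with a negative difference, -0.39. SDC4, a heparan sulfate proteoglycan of focal adhesions, rose almost alike in the lines, by 1.86 and 1.58, and differed by 0.28 ± 0.086 (95% interval 0.11 to 0.45), or by 0.69 with NC.

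**Figure D4:**
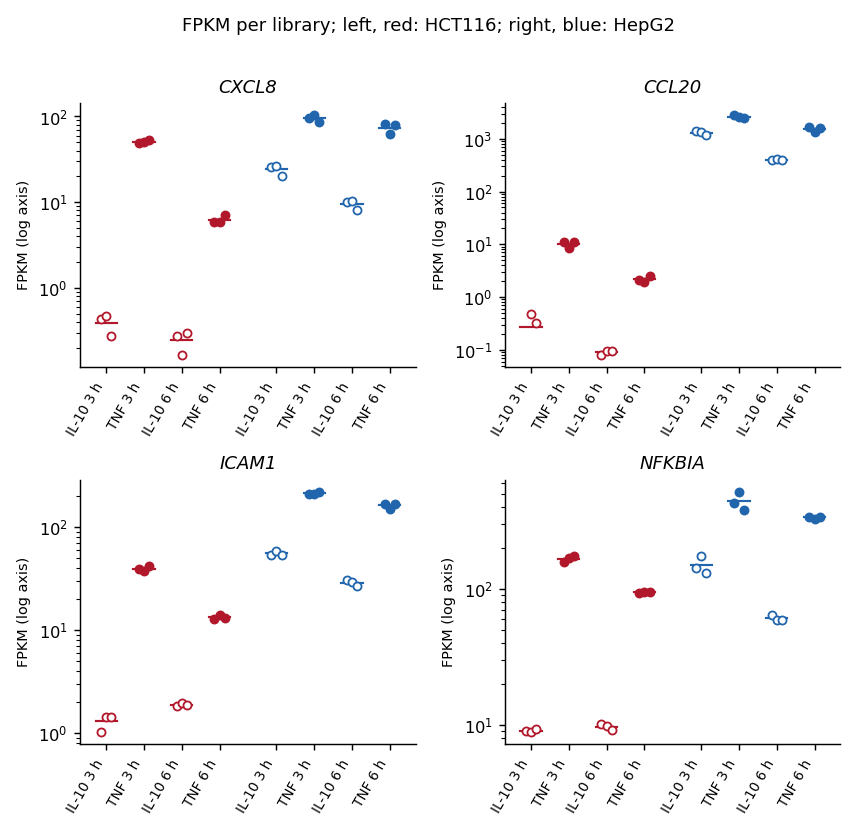
FPKM on a log axis in each of the 24 libraries for CXCL8, CCL20, ICAM1 and NFKBIA, drawn as in the plot of BIRC3 and PLAUR; the 1 HCT116 library in which CCL20 is listed at 0 is not drawn. In HCT116 the TNF points lie lower at 6 h than at 3 h for all 4 genes, and in HepG2 the IL-10 points lie lower at 6 h.

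The hour changed the line difference of few genes, and among the largest were these inflammatory genes. The difference was called for 2350 genes (24.3%) at 3 h and 2410 (24.9%) at 6 h, and its change from 3 h to 6 h for 125 genes (1.29%), 61 upward (0.63%) and 64 downward (0.661%). At 3 h 769 differences (7.94%) were above 0 and 1581 (16.3%) below, and at 6 h 799 (8.25%) and 1611 (16.6%), while median-of-ratios scaling gave 1086 and 1158 at 3 h and 1075 and 1249 at 6 h. CXCL8 had the largest downward change among the named genes. Its TNF effect was 5.22 in HCT116 and 1.94 in HepG2 at 3 h, but 2.54 and 2.84 at 6 h, so the line difference of 3.27 at 3 h was -0.30 at 6 h (adjusted p = 0.188), a change of -3.57 ± 0.23 (adjusted p = 1.51e-14). ICAM1 changed by -2.36, from 2.22 at 3 h to -0.14 at 6 h, and CCL20 by -2.53, from 2.14 to -0.39. NFKBIA changed by -1.79 and kept a positive difference at 6 h, 0.72 (adjusted p = 3.95e-05). CXCL2 changed by -1.72, from 0.14 to -1.58. Within the NF-kB list 5 of 10 changes were called, all downward. Among these the HCT116 effect of NFKB2 went from 2.78 to 3.03, and the HepG2 effect of REL from 0.50 to 0.38. In CXCL8, ICAM1, CCL20, NFKBIA and CXCL2 the HCT116 effect shrank while the HepG2 effect grew, the latter beside a fall of the IL-10 level in HepG2, for NFKBIA from a mean of 150 to 61.1 FPKM and for ICAM1 from 55.5 to 28.9.

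Among the named genes the upward changes were smaller than these. FGD6 had a line difference of 0.84 at 3 h and 1.56 at 6 h, where its HCT116 level under TNF went from 7.60, 7.66 and 7.74 to 11.5, 10.7 and 11.6 FPKM while the HepG2 TNF libraries lay between 1.77 and 2.29. PALM2AKAP2, a locus that joins a paralemmin and a kinase anchor, went from -0.64 to 0.31, with TNF means of 6.31 and 10.4 FPKM in HCT116 and 8.14 and 2.21 in HepG2. USP18, an enzyme that removes the interferon-induced modifier ISG15, went from 0.16 to 0.79. IFFO2 went from -0.20 to 0.46. CCN2, a matrix signalling protein induced by YAP, went from -0.44 to 0.37 and lay at 0.768 to 2.58 FPKM in HCT116 against 52.0 to 193 in HepG2. With NC, which has 1 group for both hours, the control drops out of this change. The 2466 changes called there compare TNF at 6 h with TNF at 3 h between the lines. They are not a like count to the 125 with IL-10.

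The interferon response genes and interferon regulatory factors leaned to HCT116. Of 18 tested, 12 differences were above 0, none was below and 6 were not called, with a median of 0.25. Of the 18, 1 had IL-10 and NC means under 1 FPKM in HepG2. The shares over all genes tested were 14.2% above and 25.7% below. In HCT116 15 rose and none fell, against 21.4% and 32.9% of all genes. In HepG2 7 rose and 2 fell, against 22.1% and 18.5%. IRF2, a regulator of interferon genes, read 0.978, 1.22 and 1.29 FPKM under IL-10 against 5.17, 4.96 and 5.24 under TNF at 3 h in HCT116, and 1.33, 1.11 and 1.37 against 5.20, 5.79 and 5.26 at 6 h. In HepG2 all 12 libraries lay between 7.68 and 9.07 FPKM and the groups overlapped. The effect of 1.5 in HCT116 and 0.05 in HepG2 differed by 1.45 ± 0.066 (adjusted p = 1.09e-20), and by 0.69 with a pseudocount of 5.

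IFIH1, which encodes the double-stranded RNA sensor MDA5, rose from 1.61, 1.56 and 1.54 to 6.13, 5.82 and 6.64 FPKM at 3 h in HCT116 and from 1.17, 1.13 and 1.09 to 8.12, 7.09 and 7.90 at 6 h. In HepG2 it rose from 2.22, 1.97 and 2.12 to 3.02, 2.72 and 2.79, and from 2.23, 2.38 and 2.26 to 3.11, 3.36 and 3.47. The groups did not overlap in either line, and the difference was 1.41 ± 0.050, or 0.74 with a pseudocount of 5. RIGI, the related sensor RIG-I, differed by 0.89 ± 0.058. ISG15, a ubiquitin-like modifier, rose from means of 88.6 and 74.0 to 192 and 133 FPKM in HCT116 and stood at 9.97 and 10.2 against 9.90 and 9.52 in HepG2, a difference of 1.02 (adjusted p = 1.6e-07). Of 6 tested antigen presentation genes, 4 differences were above 0, against 14.2% of all genes tested, and 2 were not called. For 2 of the 6 the HCT116 IL-10 and NC means were under 1 FPKM. The peptide-trimming enzymes ERAP1 and ERAP2 rose in HCT116 by 0.47 and 0.78 and differed by 0.31 and 0.67. These differences were 0.054 and 0.17 with a pseudocount of 5, and 0.97 and 1.85 with voom. The rest of the 18 listed genes, HLA genes and TAP1 among them, were under the level rule; several have alternate copies in the assembly, and their readings near 0 are not read as a lack of expression.

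Among 20 tested apoptosis regulators, 10 differences were above 0, 4 below and 6 were not called (median 0.16). The shares over all genes tested were 14.2% above and 25.7% below. BBC3, the pro-apoptotic protein PUMA, rose from 0.907, 1.29 and 1.22 to 9.02, 10.5 and 10.7 FPKM at 3 h in HCT116 and from 1.19, 1.27 and 0.962 to 4.17, 5.30 and 4.64 at 6 h. A smaller rise was seen in HepG2, from 2.94, 3.05 and 2.56 to 3.80, 4.26 and 3.96, and from 1.91, 1.67 and 1.74 to 2.62, 2.56 and 2.53. The groups stood apart in both lines, with a difference of 1.52 ± 0.091, or 0.80 with a pseudocount of 5. TNFRSF10B, the death receptor DR5, rose from means of 32.2 and 24.5 to 70.0 and 54.3 FPKM in HCT116 and from 69.3 and 55.7 to 89.6 and 73.3 in HepG2, a difference of 0.73. NINJ1, a membrane protein that ruptures the plasma membrane in lytic death, rose from 5.09 to 6.64 FPKM under IL-10 to 22.5 to 28.8 under TNF in HCT116, and lay at 34.7 to 40.9 and 36.8 to 47.0 in HepG2, a difference of 1.78 ± 0.069.

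SOD2, the mitochondrial superoxide dismutase that protects from TNF toxicity, went the other way. It rose in HepG2 from 54.8, 54 and 50.1 to 121, 121 and 117 FPKM at 3 h and from 40.0, 41.3 and 39.7 to 147, 133 and 147 at 6 h. In HCT116 it rose from 9.83, 9.44 and 9.68 to 13.1, 13.9 and 13.9, and from 9.92, 10.3 and 9.93 to 14.4, 13.7 and 14.7. The groups did not overlap in either line, and the difference was -1.02 ± 0.037 (adjusted p = 9.49e-24).

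In the urokinase system the protease rose in both lines and its receptor in 1. PLAU, which encodes urokinase, rose from 16.4, 15.6 and 14.5 to 90.3, 93.3 and 95 FPKM at 3 h in HCT116 and from 5.61, 4.86 and 4.88 to 33.2, 34.0 and 35.9 at 6 h. In HepG2 it rose from 0.931, 1.2 and 1.02 to 7.34, 7.13 and 7.17, and from 0.928, 1.13 and 0.858 to 7.16, 6.66 and 7.93. All TNF libraries stood above the IL-10 libraries. The difference of 0.49 ± 0.074 was -0.08 (adjusted p = 0.595) with a pseudocount of 0.1, -0.17 (adjusted p = 0.22) with voom, and 1.40 with NC. F3, the coagulation starter tissue factor, differed by -0.37.

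Several genes with larger effects in HepG2 were at or near a flat level in HCT116. SGK1, a serum- and glucocorticoid-induced kinase, rose in HepG2 from 22.6, 25.9 and 20.1 to 59.7, 62.3 and 54.7 FPKM at 3 h and from 11.4, 13.1 and 11.7 to 49.7, 37.5 and 49.2 at 6 h. In HCT116 it stayed between 0.493 and 1.12 FPKM in all 12 libraries, with an effect of 0.13 (adjusted p = 0.0877), although its TNF libraries lay above its IL-10 libraries at both hours. The difference was -1.44 ± 0.092. TIFA, an adaptor that joins TRAF proteins, rose from 3.02 to 3.40 and 2.13 to 2.19 FPKM to 8.66 to 9.87 and 8.46 to 9.35 in HepG2, and by 0.38 in HCT116, a difference of -1.08 ± 0.058, or -0.59 with a pseudocount of 5. FERMT2, the integrin activator kindlin-2, rose from means of 61.9 and 36.6 to 94.1 and 75.0 FPKM in HepG2 and had an effect of -0.06 in HCT116 (adjusted p = 0.159), where the TNF libraries lay under the IL-10 libraries at 3 h and above them at 6 h. The scaffold TANC1 and NCOA7, a coactivator of nuclear receptors, differed by -0.99 and -0.85, with HCT116 effects of 0.06 and 0.01 that were not called.

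The genes that TNF lowered most strongly in HCT116 included inhibitors of differentiation. ID2, which blocks basic helix-loop-helix factors, fell in HCT116 from 225, 233 and 237 to 71.8, 74.4 and 70.3 FPKM at 3 h and from 157, 163 and 152 to 47.2, 46.7 and 48.5 at 6 h. In HepG2 it read 120, 107 and 106 against 108, 107 and 105 at 3 h, and 91.2, 88.3 and 95 against 83.5, 77.0 and 76.9 at 6 h. The HCT116 groups stood far apart and the HepG2 groups overlapped at 3 h. The effect of -1.69 in HCT116 and -0.13 in HepG2 differed by -1.56 ± 0.039 (adjusted p = 4.87e-29). ID1 fell from means of 69.9 and 69.2 to 28.1 and 32.5 FPKM in HCT116 and from 169 and 120 to 137 and 96.5 in HepG2, a difference of -0.87 ± 0.057. ID genes are targets of bone morphogenetic proteins. Of 8 tested genes of the ID and BMP list 6 differences were below 0, against 25.7% of all genes tested. None was above and 2 were not called (median -0.25). In HCT116 6 fell and none rose, against 32.9% and 21.4% of all genes. In HepG2 3 fell and 2 rose, against 18.5% and 22.1%. SMAD5, which carries the BMP signal, fell by 0.20 in HCT116 and rose by 0.11 in HepG2, where the effect was 0.05 (adjusted p = 0.135) with NC.

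DUSP6, a phosphatase that restrains ERK, fell in HCT116 from 32.9, 34.6 and 33.6 to 14.1, 15.4 and 15.7 FPKM at 3 h and from 22.7, 20.2 and 19.8 to 10.1, 9.91 and 10.5 at 6 h. In HepG2 it read 33.1, 36.1 and 35.1 against 31.4, 28.3 and 29.4 at 3 h, and 22.8, 22.3 and 22.3 against 24.7, 23.9 and 25 at 6 h. The HepG2 libraries were lower under TNF at 3 h and higher at 6 h, and the mean effect there, -0.05, was not called (adjusted p = 0.245). The difference was -0.99 ± 0.047. The immediate early factor EGR1, an ERK target, fell in HCT116 from 17.8, 20.7 and 19.2 to 13.1, 13.4 and 12.7 FPKM at 3 h and from 21.2, 23.1 and 21.2 to 8.19, 8.97 and 8.03 at 6 h, and overlapped at both hours in HepG2. The difference was -0.94 ± 0.082. Other phosphatases of the list moved the other way, with DUSP5 at 0.70 (1.36 with NC) and DUSP1 at 0.63 (0.41 with a pseudocount of 5). Of 9 tested MAPK feedback genes 3 were above 0, 4 below and 2 not called. Among 25 tested AP-1 and immediate early genes, 11 differences were above 0, 6 below and 8 not called (median 0.08). The shares over all genes tested were 14.2% above and 25.7% below. Of the 25, 18 rose in HCT116 and 21 in HepG2, against 21.4% and 22.1% of all genes. For 1 of the 25 the HCT116 IL-10 and NC means were under 1 FPKM. MAFF, a small MAF factor, differed by 0.70, and FOS by -0.72, falling in HCT116 and rising in HepG2. With a pseudocount of 5 the FOS difference was -0.28, and with voom -1.22.

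Some genes moved in opposite directions: 431 (4.45% of those tested) fell in HCT116 and rose in HepG2, and 111 (1.15%) did the reverse. The split depended on scaling and control, with 317 and 184 after median-of-ratios scaling, 319 and 159 after total-read scaling, and 102 and 78 with NC. SOX9, a factor of intestinal stem cells and liver progenitors, fell in HCT116 from 14.5, 14.9 and 14 to 9.96, 9.93 and 9.85 FPKM at 3 h and from 9.41, 9.37 and 9.50 to 5.73, 5.39 and 5.65 at 6 h. The HepG2 level rose from 61.2, 69.1 and 62.2 to 79.4, 83.4 and 82.5, and from 46.1, 41.9 and 41.9 to 60.2, 61.4 and 62.6. The groups did not overlap in either line, and the difference was -1.0 ± 0.049. FAM8A1, a cofactor of a ubiquitin ligase of the endoplasmic reticulum, fell by 0.41 in HCT116 and rose by 0.58 in HepG2. TGFA encodes a growth factor for the EGF receptor and rose from 18.9 to 21.4 FPKM under IL-10 to 31.2 to 40.5 under TNF in HCT116; in HepG2 it went from 7.39, 6.73 and 6.68 to 5.74, 5.77 and 5.69 at 3 h and overlapped at 6 h. Its difference was 0.92 ± 0.053. STC2, a secreted glycoprotein, and BTRC, the ligase subunit that marks IkB for destruction, rose in HCT116 by 0.69 and 0.74 and fell in HepG2 by 0.23 and 0.10.

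The small RNA polymerase III transcripts BCYRN1 and RN7SK had among the largest differences, 2.52 ± 0.27 and 2.48 ± 0.35, and wide spread. Neither is a usual product of poly(A) selection, and both have related sequences elsewhere in the genome. BCYRN1 read 31.5, 63.6 and 71.5 FPKM under IL-10 against 11.3, 14.2 and 17.5 under TNF at 3 h in HepG2, and 57.8, 47.8 and 37.8 against 11.1, 9.91 and 9.71 at 6 h. Its NC level in HepG2 was 11.3 ± 1.3 FPKM (SD, n = 3), like the TNF groups and unlike the IL-10 groups, and with NC the difference was 0.53 (adjusted p = 0.289). RN7SK in HCT116 rested on 10.3, 8.70 and 28.7 FPKM under TNF at 6 h, and its difference was 1.46 (adjusted p = 0.0133) with NC. Against NC neither transcript fell in HepG2, with effects of 0.09 (adjusted p = 0.808) for BCYRN1 and 0.23 (adjusted p = 0.616) for RN7SK. Mitochondrially encoded RNAs differed between TNF and IL-10 in HCT116. There their share of the reads was 6.48% to 6.69% and 5.84% to 6.13% under TNF at 3 h and 6 h. Under IL-10 it was 5.03% to 5.65% and 4.87% to 5.28%. In the HCT116 NC libraries it was 5.62%, 6.02% and 5.92%, nearer to TNF at 6 h than to IL-10 at 6 h. Over the TNF and IL-10 groups of HepG2 it was 7.24% to 8.54%. Of 13 such genes 11 had a difference above 0, against 14.2% of all genes tested, and 2 were not called (median 0.27). In HCT116 11 rose, against 21.4% of all genes, and none was called in HepG2. ND6, ATP8, ND5 and ND2 had the largest, 0.73, 0.66, 0.41 and 0.33, and none of these 4 was called with NC. The part of these RNAs in other results was not tested.

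The series text names tissue inhibitors of metalloproteinases, metalloproteinases and EGF among the genes of interest. Here their line differences were small. TIMP1 rose from 72.3 to 81.2 FPKM under IL-10 to 80.7 to 94.8 under TNF in HCT116 and lay between 12.5 and 16.8 in all HepG2 libraries, a difference of 0.22 ± 0.067, which was 0.09 (adjusted p = 0.531) with NC. TIMP2 fell by 0.19 in HCT116 and rose by 0.12 in HepG2, a difference of -0.31 ± 0.056, or -0.20 with a pseudocount of 5. TIMP3 rose in HepG2 by 0.27 and had an effect of -0.01 in HCT116, a difference of -0.29 ± 0.060. The membrane metalloproteinases MMP14 and MMP15 differed by 0.04 (95% interval -0.07 to 0.16) and 0.02 (95% interval -0.09 to 0.13), neither of which was called. With NC they were 0.22 (adjusted p = 0.019) and -0.18 (adjusted p = 0.0458). The EGF receptor ligands AREG and HBEGF rose in both lines, with differences of -0.05 (adjusted p = 0.705) and 0.21 (adjusted p = 0.0794); with NC these were 0.72 (adjusted p = 1.34e-05) and 0.73 (adjusted p = 1.38e-05). AREG stood at 217 to 534 FPKM in HCT116 and 1.51 to 2.99 in HepG2. EGF itself was at most 0.0433 FPKM in any of these libraries.

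The remaining lists are given more briefly, to be read against 14.2% above 0 and 25.7% below 0 over all genes tested. Of 20 tested activin and TGF-beta genes, 4 differences were above 0, 9 below and 7 not called; beside FSTL3, the signal carrier SMAD3 differed by 0.68 and its ligase SMURF2 by 0.42, both rising more in HCT116. Of 19 tested p53 targets 6 were above 0, 5 below and 8 not called, with the cell cycle inhibitor CDKN1A at 0.66. Of 15 JAK-STAT3 genes 9 were above 0 and 2 below, against 14.2% and 25.7% of all genes. Of the 15, 1 had IL-10 and NC means under 1 FPKM in HCT116 and 2 in HepG2, so the count is a description. The receptor chain IL6ST differed by 0.71, or 0.45 with a pseudocount of 5. Of 22 G2/M genes 6 were below 0, near the 25.7% of all genes, none above and 16 not called. In HCT116 13 of the 22 fell and in HepG2 3, where all genes stood at 32.9% and 18.5%. Of 9 Wnt and stem cell genes 5 were below 0 and 1 above; the factor SOX4 differed by -0.66 and the Wnt target AXIN2 by -0.33. AXIN2 was -0.071 with a pseudocount of 5, -0.79 with voom and -0.85 with NC. Of 12 YAP targets 4 were below 0, not far from the 25.7% of all genes, none above and 8 not called. Of the 12, 1 had IL-10 and NC means under 1 FPKM in HepG2. AJUBA was at -0.40 (-0.67 with NC). CEBPA, a liver transcription factor, was the called member among 5 tested hepatocyte genes; it fell in HepG2 from means of 40.1 and 46.0 to 25.4 and 21.3 FPKM, and its effect was -0.15 in HCT116, a difference of 0.71 ± 0.068.

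**Figure D5:**
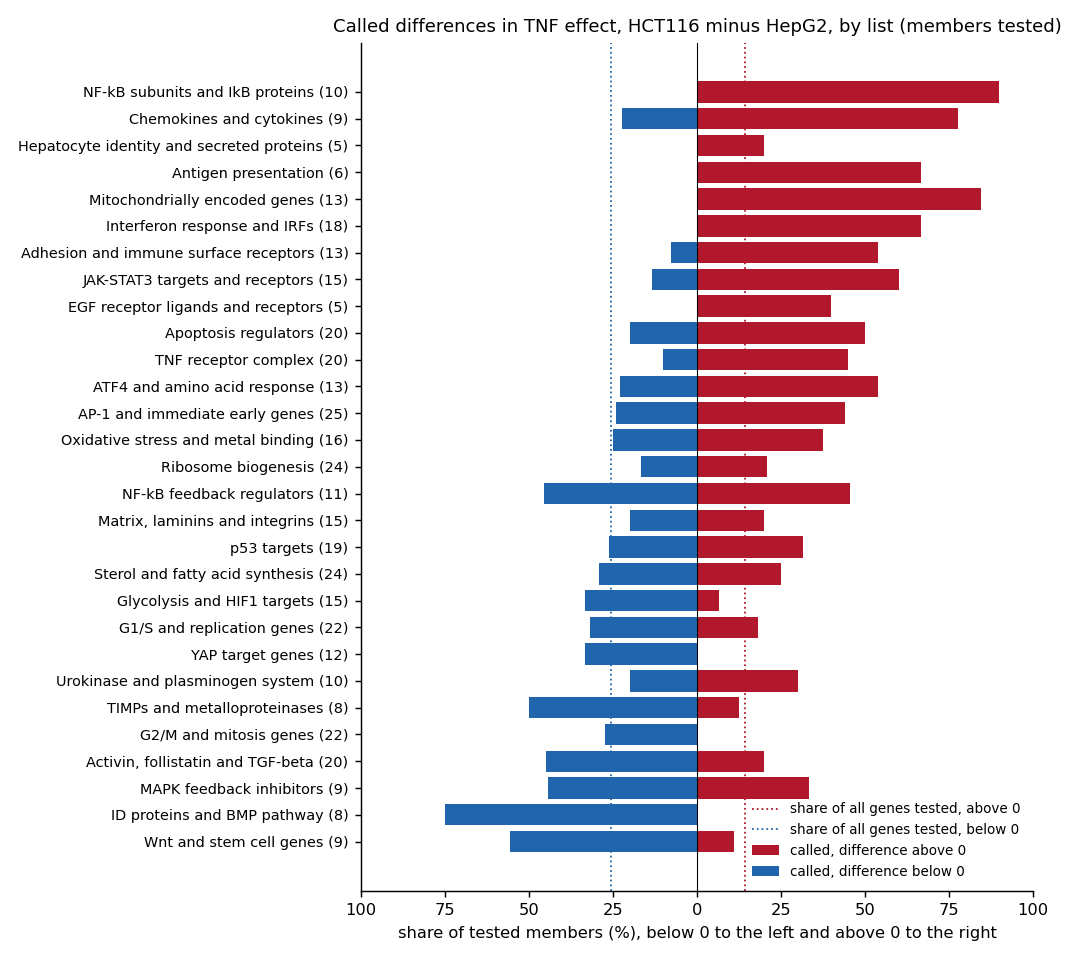
Share of tested members of each list whose difference in TNF effect, HCT116 minus HepG2, was called above 0 (red, to the right) or below 0 (blue, to the left), for the 29 lists with at least 5 tested members, ordered by median difference; dotted lines mark the share of all genes tested, 14.2% above and 25.7% below. In the NF-kB list 9 of 10 members are above 0, and in the ID and BMP list 6 of 8 are below 0. Of the 10 NF-kB members, 2 had IL-10 and NC means under 1 FPKM in HCT116 and 1 in HepG2. These passed the level rule through groups in which they were high. With a pseudocount of 5, NFKBIZ and BCL3 turned to -0.18 and -0.01. The bar of the chemokine and cytokine list is drawn but not read. Of its 9 members, 7 had every HCT116 IL-10 and NC mean under 1 FPKM and passed only through groups in which they were high.

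Genes that 1 of the lines hardly expresses could not enter the difference and are given as levels only. TNFAIP2, a TNF-induced vesicle protein, went from 4.05, 4.46 and 4.24 to 56.4, 51.0 and 60.1 FPKM at 3 h in HCT116 and from 4.29, 4.42 and 4.27 to 59.3, 57.9 and 58.6 at 6 h, and stayed at or under 0.457 in HepG2. The laminin chain LAMB3 went from a mean of 5.74 to 22.0 FPKM at 3 h in HCT116, and the integrin ITGB8 from 1.16 to 5.46, both under 0.04 in every HepG2 library. TNFRSF9, a costimulatory receptor, and the growth factor CSF2 were under 0.09 FPKM in the IL-10 libraries of HCT116 and reached 4.11 and 3.15 under TNF. In HepG2 the acute phase inhibitor SERPINA3 went from 128, 124 and 130 to 192, 178 and 191 FPKM at 3 h and from 180, 162 and 152 to 289, 288 and 292 at 6 h, and was at most 0.497 in HCT116. The iron hormone hepcidin, HAMP, went down in HepG2 from 29.2, 26.5 and 35.5 to 12.2, 17.7 and 16.1 FPKM at 3 h and from 41.9, 33.3 and 38.0 to 12.1, 14.2 and 13.7 at 6 h. The neutrophil chemokine CXCL5 went from 0.749, 0.882 and 0.657 to 4.76, 3.51 and 4.37 FPKM at 3 h in HepG2 and was at most 0.0187 in HCT116. In each of these sets the TNF and IL-10 libraries of the expressing line did not overlap. These genes, and BCL2A1 above, were chosen after their values were seen, and no test is given.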

How the data were processed

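Poly(A) RNA libraries were sequenced on an MGI instrument, per the labels. The authors deposited FPKM per gene for 54 libraries. FastQC, HISAT2, StringTie, DESeq2 and GRCh38 stand in the submitters' processing notes, with no versions, and no source used here names the annotation. A further 48 columns of per-sample values that name no group were not used. FPKM steps gave whole reads (within 0.01) for 36451 of 36451 genes (100% whole), and limma voom on those reads called 3803 line differences.

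Values were taken as log2(FPKM + 1), with at least 1 FPKM in at least 3 libraries of both lines, which kept 9683 entries. All 54 libraries were fitted in limma 3.58.1 (R 4.3.3, package data.table, version 1.17.8; empirical Bayes with trend, 1 mean per group), two-sided, with Benjamini-Hochberg adjustment over all genes tested and calls under an adjusted p of 0.05. Every adjusted p in the text is from limma, SE and 95% intervals are from the same fit, and fold changes understate low genes. Tables and plots used Python 3.11.15, pandas 2.3.3, numpy 2.4.6 and matplotlib 3.10.9. Promoters and coordinates are from RefSeq, GRCh38.p14.

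Genes named are called genes of at least 5 FPKM in a group whose TNF and IL-10 libraries do not overlap in a line (the 15 largest differences each way), the 8 largest changes shared by or opposite between the lines, the 5 largest changes with the hour each way, 4 called members of each list, and a fixed set of NF-kB, metalloproteinase and EGF receptor genes. Of the entries tested, 410 have copies elsewhere in the table, and these are not named. A few genes that the rule picks are not reported here. The members and lists were chosen with earlier results of these data known. The fit was tested on simulated data for the line difference (9578 genes, 50 changed at each size): 72%, 98%, 98% and 94% of genes changed by 1.25, 1.5, 2 and 4-fold were recovered, and 5.2% of calls were genes that had not changed.

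Alternatives were pseudocounts of 0.1 and 5, no filter or a filter at 5 FPKM, median-of-ratios and total-read scaling, a replicate block, only the 24 libraries compared, NC as the control, voom, each library left out and, added after seeing the data, entries with copies left out.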

Additional observations from a re-analysis of the deposited data

Results flagged for a closer look

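The TNF effect was called in opposite directions in the lines for 7 named genes, and the difference itself passed the limma test for each. BCYRN1 had a TNF effect of 0.56 in HCT116 and -1.96 in HepG2, a difference of 2.52 (adjusted p = 9.24e-10). RN7SK had 1.41 and -1.08, a difference of 2.48 (adjusted p = 3.53e-07). Against NC the HepG2 effects were 0.09 (adjusted p = 0.808) for BCYRN1 and 0.23 (adjusted p = 0.616) for RN7SK. SOX9 had -0.58 and 0.42, a difference of -1.0 (adjusted p = 1.49e-19). FAM8A1 had -0.41 and 0.58, a difference of -0.99 (adjusted p = 3.93e-21). TGFA had 0.80 and -0.13, a difference of 0.92 (adjusted p = 2.08e-17). STC2 had 0.69 and -0.23, a difference of 0.92 (adjusted p = 1.45e-15). BTRC had 0.74 and -0.10, a difference of 0.84 (adjusted p = 2.08e-17).

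For 10 named genes the line difference changed between 3 h and 6 h by the limma test of that change. It went up for PALM2AKAP2 by 0.96 (adjusted p = 8.86e-07), CCN2 by 0.80 (adjusted p = 0.0225), FGD6 by 0.72 (adjusted p = 8.86e-07), IFFO2 by 0.66 (adjusted p = 0.000456) and USP18 by 0.63 (adjusted p = 0.0195). In PALM2AKAP2 the effect at 3 h and 6 h was 0.05 and 0.45 in HCT116 and 0.70 and 0.13 in HepG2. The changes were -3.57 for CXCL8 (adjusted p = 1.51e-14), -2.53 for CCL20 (adjusted p = 4.4e-09), -2.36 for ICAM1 (adjusted p = 1.02e-15), -1.79 for NFKBIA (adjusted p = 4.4e-09) and -1.72 for CXCL2 (adjusted p = 1.29e-05). In CXCL2 the effect at 3 h and 6 h was 1.65 and 0.74 in HCT116 and 1.5 and 2.31 in HepG2.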

How the results depend on the processing

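The control mattered most: with NC in place of IL-10, 1728 line differences were called (933 above 0, 795 below) against 3864. The 2466 changes with the hour under NC are a different quantity from the 125 with IL-10. NC has 1 group for both hours and drops out of that change. What is left is TNF at 6 h minus TNF at 3 h, compared between the lines. The split with NC was 1033 above and 1183 below at 3 h, and 1008 and 615 at 6 h. With IL-10 as the control, the count of changes with the hour was 254 without a filter, 73 with a filter at 5 FPKM and 79 with only the 24 libraries compared. The cause of these shifts in counts was not tested. The other alternatives kept each count within 1.5 times. Leaving out each library in turn gave 3527 to 4051 line differences, 1779 to 2667 at 3 h, 2018 to 2503 at 6 h, 94 to 137 changes with the hour, 4913 to 5287 TNF effects in HCT116 and 3566 to 3977 in HepG2.

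With the replicate block the counts were 3953 line differences, 2445 at 3 h, 2491 at 6 h, 144 changes with the hour, 5319 effects in HCT116 and 4030 in HepG2. Deviations of same-numbered libraries had correlations of -0.087 to 0.11 in HCT116 and -0.069 to 0.091 in HepG2 (18 pairs each). Such values cannot show whether same-numbered libraries were handled together, and the titles give only a replicate number.

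Some named differences changed sign, and the cause was not tested. With a pseudocount of 5 they were -0.17 for TNFAIP3, 0.048 for CCN2, -0.45 for CCL20, -0.10 for IL32, 0.094 for AREG, -0.18 for NFKBIZ and -0.011 for BCL3. With a pseudocount of 0.1 they were -0.079 for PLAU and 0.19 for CXCL2. With voom they were 0.38 for CXCL3, -0.17 for PLAU, 0.60 for CXCL2 and -0.000995 for MMP15. With NC they were 0.075 for CCN2, 0.10 for ADAM17, 0.068 for CCNG1, 0.19 for STARD4, 0.24 for IDI1, -0.014 for CCND1, 0.015 for CCNB1, -0.18 for MMP15 and 0.72 for AREG. With each library left out in turn, CCN2 ranged from -0.082 to 0.0013 (the highest without replicate 2 of HCT116 IL-10 at 3 h), MMP15 from -0.0045 to 0.048 and AREG from -0.11 to 0.020 (the sign turning without replicate 1 of HCT116 IL-10 at 6 h). Over all named genes and alternatives, 4768 values kept their direction and side of the threshold, 114 lost the call, 18 gained it and 25 changed sign. These totals include every fit with 1 library left out. With NC alone, 101 of 142 named differences kept both, 29 lost the call, 3 gained it and 9 changed sign. Genes under 1 FPKM in a line limit the comparison.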

Other observations

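A few further genes that HCT116 hardly expresses moved in HepG2, chosen after their values were seen and given with no test. GBP1, an interferon-induced GTPase, read 2.90, 3.3 and 2.17 FPKM under IL-10 against 6.76, 6.98 and 7.22 under TNF at 3 h in HepG2, and 0.926, 1.23 and 1.10 against 5.32, 3.70 and 4.98 at 6 h. The HepG2 groups did not overlap, and no HCT116 library was above 0.196 FPKM. STAT5A, a transcription factor of cytokine receptors, read 0.925, 0.884 and 0.902 FPKM against 2.52, 2.21 and 2.21 at 3 h in HepG2. In HCT116 STAT5A was listed at 0 in 1 IL-10 library at 3 h and read 0.00826 and 0.00683 in the others, against 0.411, 0.289 and 0.501 under TNF. ANGPTL8, a secreted regulator of lipoprotein lipase, went down in HepG2 from 10.4, 8.6 and 9.74 to 4.82, 4.34 and 4.93 FPKM at 3 h, and from 13.3, 13 and 14.8 to 4.95, 7.65 and 4.90 at 6 h.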
